A study of Mus musculus with 16 samples.

Results

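The Oct4defSox2 day 5 sites lacking Oct4 are 454 of the 1034 places on chromosomes 1 to 19, X and Y at which Oct4defSox2 gave a ChIP-seq summit on day 5 of reprogramming. They were chosen by 1 measured property: no summit of wild-type Oct4 lay within 100 bp of them on day 1, day 5 or day 7. The other 580 sites had such an Oct4 summit and serve as the comparison throughout. The 454 sites are 43.9% of that list, and the series as a whole holds 227116 summits in 13 libraries.

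ChIP-seq maps where a protein sits on DNA by sequencing the fragments that an antibody pulls down, and a summit is the point of highest signal within a peak. The cells were OG2 mouse embryonic fibroblasts, in which Oct4 activity lights up a green fluorescent reporter, and all carried retroviral Sox2 and Klf4 together with 1 POU factor. That factor was Oct4 (Oct4-SK), Oct6 (Oct6-SK), Oct4defSox2 (Oct4defSox2-SK), an Oct4 mutant impaired in pairing with Sox2, Oct4 S151M, an Oct4 mutant that pairs more readily with itself, or Oct6 M151S, the reciprocal Oct6 mutant. Oct4 was mapped in Oct4-SK cells on days 1, 5 and 7, Oct4defSox2 in its own cocktail on days 1 and 5, both exchange mutants on day 1, and Sox2 on days 1 and 5 in the Oct4-SK, Oct6-SK and Oct4defSox2-SK cocktails. Days were counted from the change to the chemically defined medium, and the title of the Oct6 M151S library says day 1 while another of its labels says day 2. The POU factors here were expressed from retroviruses, in bulk cultures that hold cells at different stages. A site bound in fewer cells and a site bound more weakly in each cell therefore cannot be told apart. The authors report that only the Oct4-SK cocktail switched on the cells' own Oct4 gene. They also report a moderate fall in POU protein after day 1, mainly for Oct6 and Oct4defSox2. The part of either in the sites was not tested. The same Oct4 antibody was used for Oct4, Oct4defSox2 and Oct4 S151M. Every group had 1 library, so no difference could be set against replicate error. Intervals below are 95% intervals that cover counting error among sites only.

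POU factors hold DNA with a pair of domains joined by a linker. On the SoxOct element Oct4 binds next to Sox2, an arrangement found at many enhancers of pluripotent cells, whereas on the palindromic element named MORE, and on its variant with an extra base in the middle, MORE+1, POU molecules bind as a pair of their own. The octamer, ATGCAAAT, is the element that a single POU molecule can hold.

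The sequences that carry the main contrast among the 454 sites are shown first, read from GRCm38 (mm10) 5′ to 3′ on the strand named, with the matched motif in capitals. Among the strongest members with a MORE, the first was intergenic, nearest to Nmbr at 1411154 bp from its start (chr10:16171337-16171397, plus strand), which encodes a receptor for neuromedin B. The second lay in an intron of the noncoding gene Gm30624, nearest to the start of Krr1 at 136178 bp (chr10:111836452-111836512, plus strand). The third lay in an intron of Clip2 (chr5:134521354-134521414, plus strand), a gene for a microtubule-linked protein. All of these were also bound by Oct4defSox2 on day 1 and by Oct4 S151M.
Nmbr: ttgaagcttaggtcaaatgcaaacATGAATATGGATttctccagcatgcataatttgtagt
Krr1: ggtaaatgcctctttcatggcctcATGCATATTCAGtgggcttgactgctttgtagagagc
Clip2: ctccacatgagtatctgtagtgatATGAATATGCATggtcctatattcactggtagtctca

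The Clip2 window of 201 bp held 4 MORE matches, 3 of them with 0 mismatches, and the exact match nearest to the summit is shown. The Nmbr and Krr1 windows held 1 match each, with 1 mismatch. A pair of MORE+1 sites, one intergenic at 554373 bp from the start of Ankrd7 (chr6:19420712-19420772, plus strand) and one in an intron of Pde1c at 131109 bp from the start of Ppp1r17 (chr6:56148594-56148654, plus strand), shared 44 of 61 bases when laid side by side without gaps. Outside the element, 31 of 48 bases were identical. A MORE+1 site near B3galt1, which ranks between them, shared 17 of 61 bases with the first and 23 of 61 with the second. Soft-masked repeats made up 74.6% of the Ankrd7 window and 100% of the Ppp1r17 window. The Ppp1r17 site had an Oct4 summit 126 bp away, just past the limit, while the nearest to the Ankrd7 site was at 91401 bp. They are shown as examples of the element within repeat sequence, and the Ppp1r17 and B3galt1 sites were picked after their values were seen.
Ankrd7: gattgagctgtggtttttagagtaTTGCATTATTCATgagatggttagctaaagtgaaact
Ppp1r17: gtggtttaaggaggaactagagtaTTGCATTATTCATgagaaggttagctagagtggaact

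SoxOct matches were few among the members, and all of them needed 2 mismatches, the most that was allowed. The examples shown are an intergenic site 47387 bp from the start of Eya1 (chr1:14357567-14357627, plus strand), which encodes a transcriptional coactivator and phosphatase of organ development, and a site in an intron of the noncoding gene Gm49121 22264 bp from the start of Gm7168 (chr17:13926062-13926122, plus strand). Both also hold the full octamer.
Eya1: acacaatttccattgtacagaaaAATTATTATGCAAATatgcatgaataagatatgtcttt
Gm7168: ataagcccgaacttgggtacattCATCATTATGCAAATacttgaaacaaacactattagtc

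A shorter element, TTATGCAA, was noticed in the windows after their values had been seen and is called the extended half-site here. It is shown at the intergenic site nearest to 4930474N05Rik, at 177240 bp (chr14:36272119-36272179, minus strand), at an intergenic site 172839 bp from the start of Atp10a (chr7:58831035-58831095, plus strand) and in an intron of Sgms1 (chr19:32295764-32295824, minus strand), a gene for a sphingomyelin synthase. They were picked as examples after their values were seen, and sites of the same kind at Tnip2 (12.7) and Chd7 (11.1) scored above Sgms1 (10.3). These sites were bound on day 1 by Oct4defSox2 but gave no Oct4 S151M summit. The Sgms1 site also holds the full octamer, which overlaps the match shown.
4930474N05Rik: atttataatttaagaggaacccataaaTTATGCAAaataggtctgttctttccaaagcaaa
Atp10a: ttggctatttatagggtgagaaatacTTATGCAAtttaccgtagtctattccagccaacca
Sgms1: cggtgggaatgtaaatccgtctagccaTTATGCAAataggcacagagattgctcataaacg

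The members were the weaker end of the day 5 list. Their summit scores, which are the −log10 of the peak caller's p-value, ran from 4.12 to 39.4 with a median of 6.67. The 580 sites with Oct4 had a median of 12.7 and reached 292.5. A score of at least 10 was given to 88 members (19.4%, 95% interval 16.0 to 23.3) and to 398 sites with Oct4 (68.6%, 64.7 to 72.3). Among the 100 strongest day 5 sites 2 were members, and among the 201 sites that make up the strongest 200 with ties there were 13. No member scored 40 or more, where 62 sites with Oct4 lay. Of the members, 155 scored under 6, against 39 sites with Oct4. Weak summits are also more likely to be missed in another library, and the part of score in the absence of Oct4 was not tested. The Oct4 lists behind the choice held 8216, 4854 and 3638 summits on days 1, 5 and 7. The Oct4defSox2 list of day 1 held 31070. The part of list size was not tested either.

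**Figure D1:**
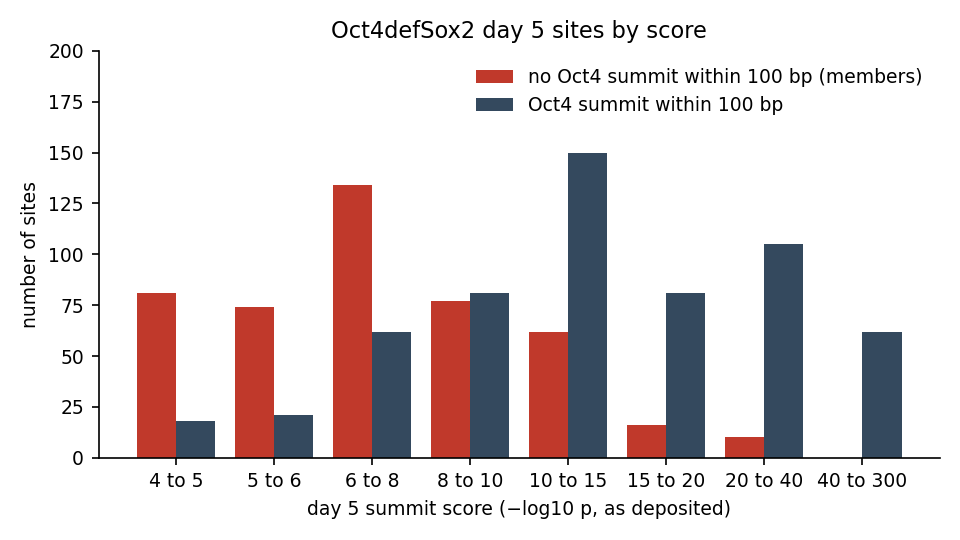
Number of Oct4defSox2 day 5 sites (vertical axis) in bands of summit score (horizontal axis, −log10 p; the lower edge is included), for the 454 members without an Oct4 summit within 100 bp (red) and the 580 sites with one (dark). Members outnumber sites with Oct4 in the bands under 8, and none of them reaches 40.

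Most members were far from any Oct4 summit rather than just past the limit. Their distance is the value that the choice used, and it was not compared with that of arbitrary places. The distance to the nearest Oct4 summit of any day had a median of 51143 bp, and 22 members had one within 250 bp, 34 within 1000 bp and 61 within 5000 bp. The members nearest to the limit were the sites at Cops3, Vmn2r81, Dcn, Gm9747 and 4930467E23Rik, at 106 to 114 bp from an Oct4 summit and with day 5 scores of 5.37 to 11.1. On the other side of the limit, and so not members, were the sites at 4930568D16Rik, Fndc1, Dab2ip, Gm42791 and Dclk2, at 91 to 97 bp and with scores of 5.31 to 10.3. These neighbours of the limit were alike in score, and no test applies to them. With a limit of 50 bp there would have been 514 members, and with 500 bp 427.

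The occupancy of the members in the 9 libraries that the choice did not use divided them. Oct4defSox2 itself had been at 173 members on day 1 (38.1%, 33.8 to 42.7), compared with 556 sites with Oct4 (95.9%, 93.9 to 97.2) and with 70.5% of all 1034 day 5 sites. The difference was -57.8 percentage points (-62.3 to -52.8). Oct4 S151M on day 1 was at 122 members (26.9%, 23.0 to 31.1) against 499 sites with Oct4 (86.0%, 83.0 to 88.6) and 60.1% of all day 5 sites, a difference of -59.2 points (-63.8 to -53.9). Both differences were past counting error, but they compare single libraries. At day 5 scores of at least 10 the first was -20.7 points, and with only the strongest summits of the other library the second was -22.4 points (1.76% against 24.1%). When the members were moved by 10 kb along their chromosomes, 0.330% of the new places had a day 1 Oct4defSox2 summit and 1.32% an Oct4 S151M summit. Occupancy at the members was thus lower than at sites with Oct4 and above that of nearby places.

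Oct6 M151S and Sox2 were rarer. Oct6 M151S was at 14 members (3.08%) and 60 sites with Oct4 (10.3%), against 7.16% of all day 5 sites, with a difference of -7.26 points (-10.3 to -4.25). Its library went down to a score of 2.30, below the 4.00 at which the other libraries start, and its 14 summits at members had a median of 4.56. Sox2 in Oct4-SK cells on day 5 was at 11 members (2.42%) and 49 sites with Oct4 (8.45%), against 5.8% of all day 5 sites, a difference of -6.03 points (-8.78 to -3.29). At day 5 scores of at least 10 neither was past counting error, at -6.51 points (-10.9 to 0.596) and -5.38 points (-9.29 to 1.21). With only the strongest summits of the other library they were -3.48 points (-5.47 to -1.63) and -2.02 points (-3.59 to -0.645).

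For Sox2 in the members' own cocktail on day 5 the gap was within counting error. In Oct4defSox2-SK cells it was at 25 members (5.51%, 3.76 to 8.00) and at 49 sites with Oct4 (8.45%, 6.45 to 11.0), against 7.16% of all day 5 sites. The difference of -2.94 points (-6.03 to 0.256) includes 0, and an interval that reaches down to -6.03 does not show that the shares are alike. It was past counting error at a member distance of 250 bp (-3.55 points), a sharing distance of 250 bp (-5.98) and scores under 10 (-4.42), while at scores of at least 10 it was 1.94 points with an interval that includes 0 (-3.75 to 10.3). In the remaining Sox2 libraries the members' counts were 8 for Oct4defSox2-SK on day 1 (1.76%, with 3.38% of all day 5 sites), 11 for Oct4-SK on day 1 (2.42%, 7.06% of all), 4 for Oct6-SK on day 1 (0.881%, 1.55% of all) and 9 for Oct6-SK on day 5 (1.98%, 3.58% of all). At least 1 of the 6 Sox2 libraries had a summit at 38 members (8.37%, 6.16 to 11.3) and at 125 sites with Oct4 (21.6%, 18.4 to 25.1), which makes 163 of all day 5 sites (15.8%).

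**Figure D2:**
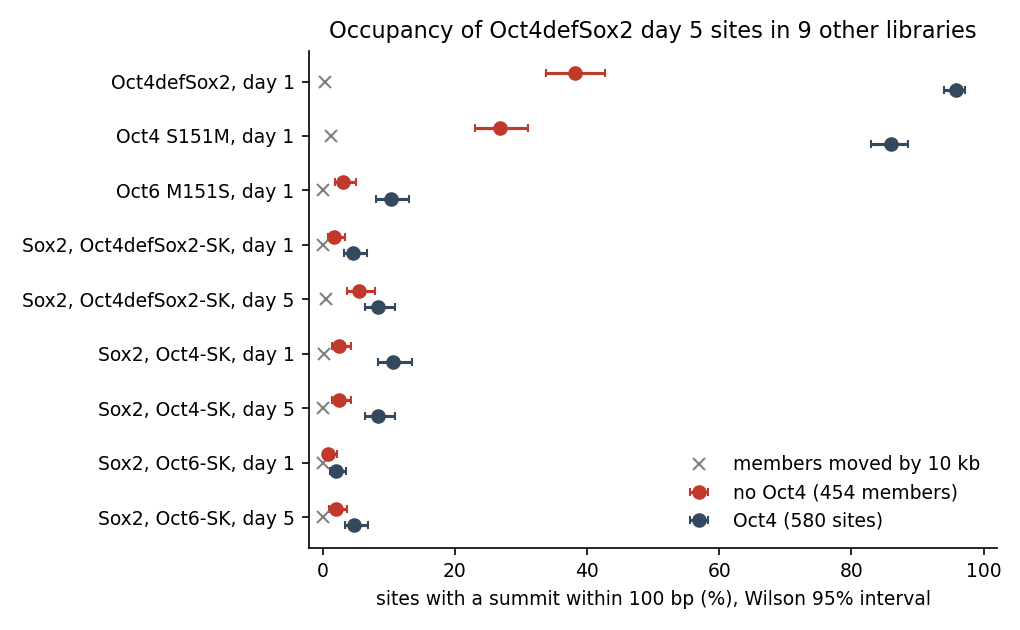
Share of sites with a summit of the named library within 100 bp (horizontal axis, %, with Wilson 95% intervals) for the 454 members (red), the 580 sites with Oct4 (dark) and the members moved by 10 kb (grey crosses). Members sit below sites with Oct4 in every library, by far the most for Oct4defSox2 and Oct4 S151M on day 1. The intervals overlap for Sox2 in Oct4defSox2-SK and in Oct6-SK on both days.

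Of the members, 249 (54.8%) had a summit in none of these 9 libraries, as against 12 sites with Oct4 (2.07%) and 261 of all 1034 day 5 sites (25.2%). A further 84 were in 1 library, 96 in 2 and 25 in 3 or more. Of the 96 in 2 libraries, 86 were in the same pair, Oct4defSox2 on day 1 and Oct4 S151M. The members therefore fall into 103 sites with both, 70 with Oct4defSox2 on day 1 but no Oct4 S151M, 19 with Oct4 S151M only, and 262 with neither. The last were the weakest, with a median day 5 score of 6.01, against 9.46, 8.79 and 7.99 for the others in that order.

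At 154 of the 173 members kept from day 1, the day 1 score was the higher of the pair. The day 1 scores of these members ran from 5.48 to 188.8 with a median of 27.5, and the 556 kept sites with Oct4 had a median of 74.2. Scores are not scaled between libraries, so higher values in 1 library do not measure more protein. Seen from day 1, a day 5 summit lay at 176 of the 24973 Oct4defSox2 day 1 sites without Oct4 (0.705%, 0.608 to 0.816) and at 553 of the 6086 with it (9.09%, 8.39 to 9.83). Among those without Oct4, 101 of the 8447 that also had Oct4 S151M were found again (1.20%), compared with 75 of the 16526 without Oct4 S151M (0.454%). Day 1 scores moved with these shares, with medians of 10.2 without Oct4 and 22.4 with it, and, among sites without Oct4, of 12.8 with Oct4 S151M and 9.43 without. Their part in the shares was not tested.

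**Figure D3:**
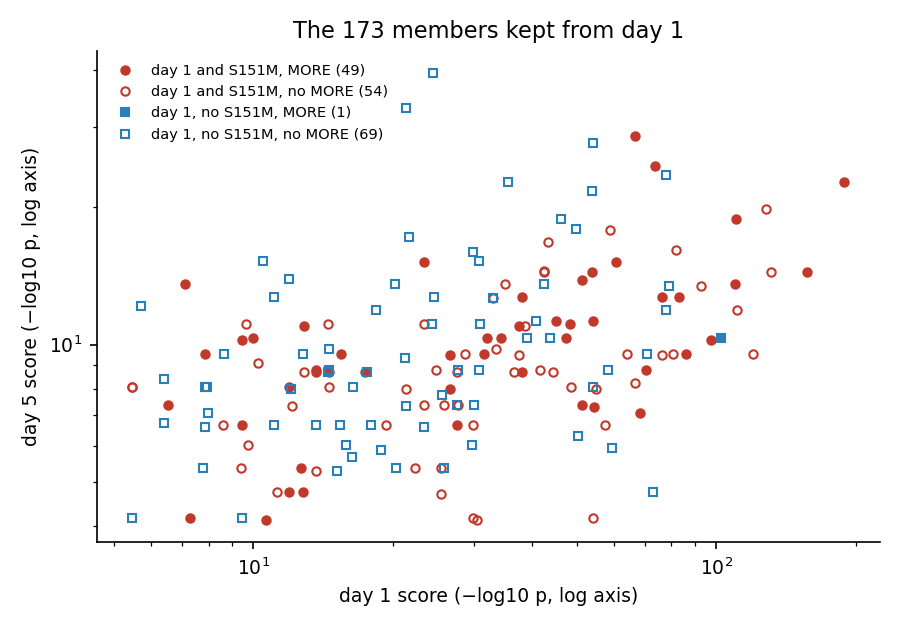
Day 5 summit score (vertical axis, log scale) against day 1 summit score of Oct4defSox2 (horizontal axis, log scale) at the 173 members kept from day 1, both as −log10 p. Circles have an Oct4 S151M summit and squares have none, and filled symbols hold a MORE or MORE+1. The filled symbols are nearly all circles, while the 2 highest day 5 scores are open squares.

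The DNA under the members followed the same division. A MORE or MORE+1 was in the 201 bp window of 62 members (13.7%, 10.8 to 17.1) and 236 sites with Oct4 (40.7%, 36.8 to 44.7), a difference of -27.0 points (-32.0 to -21.8). Windows 2 kb to either side of members held one in 0.881%, and all 1034 day 5 sites in 28.8%. Windows around all summits of the series held one in 13.1%, and Oct4 S151M gave 24734 of these 29720 matches. By library the share was 24.5% for Oct4 S151M, 7.12% for Oct4defSox2 on day 1, 7.64% to 12.9% for Oct4, 0.886% for Oct6 M151S and 0.637% to 2.10% for Sox2. The shares over all summits given below are pooled in the same way. The difference of -27.0 points was -11.2 when no mismatch was allowed (4.85% against 16.0%). Motifs were searched on both strands, with up to 1 mismatch for MORE and MORE+1 and 2 for SoxOct. The octamer had to match exactly, so a site without a POU motif may still hold a near match. A SoxOct match contains most of an octamer, and SoxOct, octamer and extended half-site matches often overlap.

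Oct4 S151M, whose list holds 101170 summits, was at nearly all MORE-bearing members. Among members with a MORE or MORE+1, 58 of 62 (93.5%) had an Oct4 S151M summit, and among members with no POU motif 49 of 361 (13.6%) did, a difference of 80.0 points (70.2 to 85.0). With only the strongest Oct4 S151M summits, as many as the day 5 list holds, the counts were 7 of 62 and 1 of 361, a difference of 11.0 points (5.16 to 21.2). The share with a MORE or MORE+1 was 47.6% (38.2 to 57.1) in the 103 sites with day 1 and Oct4 S151M summits and 47.4% (27.3 to 68.3) in the 19 with Oct4 S151M only. It was 1 of 70 (1.43%, 0.253 to 7.66) in those of day 1 without Oct4 S151M and 3 of 262 (1.15%, 0.390 to 3.31) in those with neither, close to the flanks. Where Oct4 S151M was present, its scores had a median of 141.0 at the 58 MORE members and 25.8 at the 49 without a POU motif. MORE matches lay near the summit, at a median of 23.5 bp over 49 members, and 16.5 bp over 165 sites with Oct4.

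The share with a MORE or MORE+1 was also higher in members kept from day 1 (50 of 173, 28.9%) than in members new at day 5 (12 of 281, 4.27%), by 24.6 points (17.7 to 32.0). With no mismatch allowed the counts were 16 of 173 and 6 of 281, 7.11 points apart (2.86 to 12.5). Sox2 on day 5 in the same cocktail was likewise at 19 kept members (11.0%) and 6 new ones (2.14%), a difference of 8.85 points (4.30 to 14.5). Kept members had higher day 5 scores, with a median of 8.79 against 6.01, which moves with both differences. At scores of at least 10, with 68 kept and 20 new members, neither was past counting error, at 18.2 points (-5.84 to 35.1) and 6.76 points (-12.7 to 17.4). Under 10, a restriction added after the data were seen, they were 19.8 points (12.2 to 28.8) and 8.56 points (3.40 to 16.0). The Sox2 difference was 4.51 points at a sharing distance of 50 bp, 19.6 at 250 bp and -1.19 with only the strongest summits of the other libraries, where the interval includes 0 (-2.75 to 9.26).

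SoxOct was found in 15 members (3.30%, 2.01 to 5.38) and 46 sites with Oct4 (7.93%, 6.00 to 10.4), against 1.54% of member flanks and 5.99% of all summits. The difference was -4.63 points (-7.43 to -1.79), and at day 5 scores of at least 10 it was not past counting error (-3.88, -7.61 to 2.63). With 1 mismatch more it was -10.9 points (15.0% against 25.9%), and with 1 fewer -2.93 points (0 members against 17 sites with Oct4). Of the 15, 8 were in the 103 sites with day 1 and Oct4 S151M summits. The octamer was in 26 members (5.73%) and 76 sites with Oct4 (13.1%), with 1.65% of flanks and 5.72% of all summits. PORE, another palindromic POU element, was in 1 member and 4 sites with Oct4, and in 1.65% of member flanks. None of MORE, MORE+1, SoxOct and octamer was found in 361 members (79.5%, 75.6 to 83.0) and 269 sites with Oct4 (46.4%, 42.4 to 50.4), 33.1 points apart (27.5 to 38.4), or 19.3 points with 1 mismatch fewer. Over all 1034 day 5 sites SoxOct was in 5.90%, the octamer in 9.86% and none of the 4 in 60.9%. Member flanks lacked all 4 in 96.5%, all summits of the series in 77.8%, and the 262 sites with neither day 1 nor Oct4 S151M summits in 95.4%.

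The extended half-site TTATGCAA was picked from these windows, so its shares are a description. It was in 13 of the 70 day 1 sites without Oct4 S151M (18.6%, 11.2 to 29.2), 11 of the 103 with both (10.7%, 6.07 to 18.1), 0 of the 19 with Oct4 S151M only and 4 of the 262 with neither (1.53%). Sites with Oct4 held it in 55 of 580 (9.48%, 7.36 to 12.1), member flanks in 0.771% and all summits in 3.13%. All members held it in 28 of 454 (6.17%), all 1034 day 5 sites in 8.03% and all Oct4defSox2 day 1 summits in 4.85%. The element lay a median of 20.5 bp from the summit in the 13. It was not among the elements that define a POU motif here, and 15 of the 361 members without one held it (4.16%).

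AP-1, KLF, TEAD and RUNX motifs mark enhancers used by fibroblasts or, for KLF, the Klf4 of the cocktail. The AP-1 site, TGAGTCA or TGACTCA, was in 37 members (8.15%) and 82 sites with Oct4 (14.1%), against 4.19% of member flanks and 9.55% of all summits. It was in 15.5% of members with day 1 and Oct4 S151M, 15.7% of those with day 1 only, and 3.44% of those with neither. The RUNX motif TGTGGTT was in 30 members (6.61%) and 86 sites with Oct4 (14.8%), with 5.29% of member flanks and 6.00% of all summits. The TEAD motif GGAATG was at 15.0% and 15.9%, with 9.69% of member flanks and 12.6% of all summits. The KLF motif was in 13 members (2.86%) and 23 sites with Oct4 (3.97%), and in 1.10% of flanks and 1.80% of all summits. The single Sox motif was in 35 members (7.71%) and 69 sites with Oct4 (11.9%), against 5.29% of flanks and 12.1% of all summits. Over all 1034 day 5 sites the shares were 11.5% for AP-1, 11.2% for RUNX, 15.5% for TEAD, 3.48% for KLF and 10.1% for Sox. The Sox motif was in 7 of the 38 members with any Sox2 summit (18.4%, 9.22 to 33.4) and 28 of the other 416 (6.73%, 4.70 to 9.56). Of the 38 Sox2 members, 35 had no POU motif and 2 had a MORE or MORE+1. Over all members these shares were 79.5% and 13.7%. Over all summits of each Sox2 library they were 90.3% to 97.1% and 0.637% to 2.10%.

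**Figure D4:**
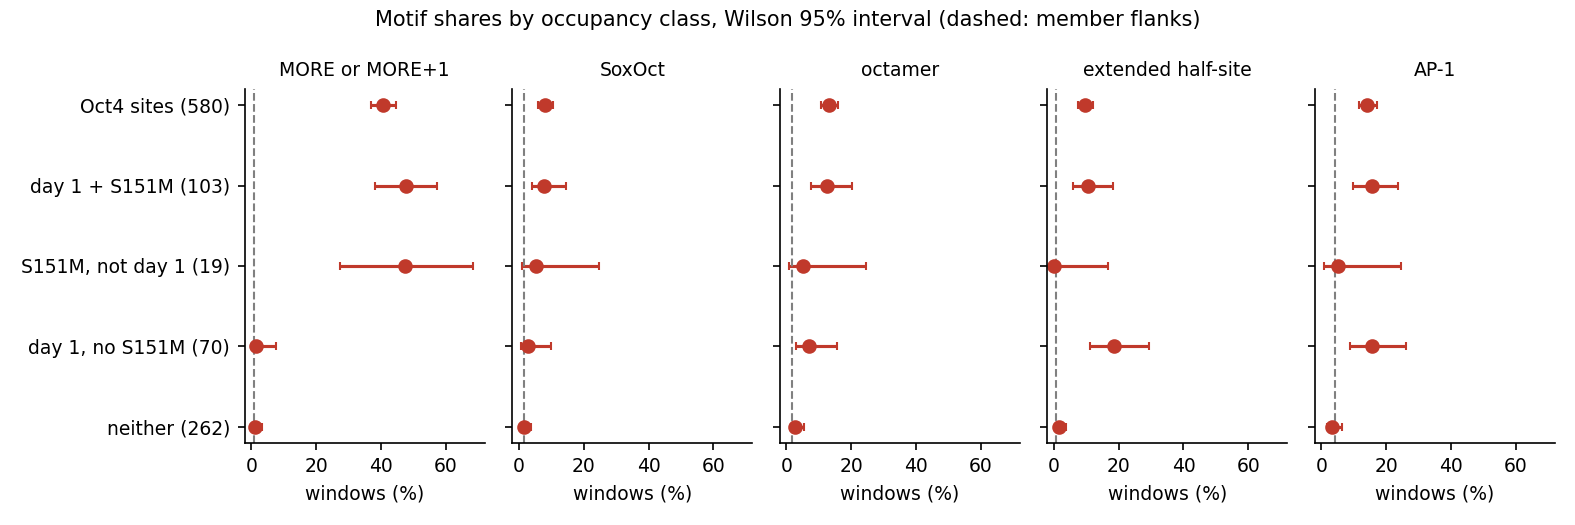
Share of 201 bp windows with each motif (horizontal axes, %, Wilson 95% intervals) in the 580 sites with Oct4 and in members divided by day 1 Oct4defSox2 and Oct4 S151M summits, with the number of sites in brackets. The dashed line is the share in windows 2 kb from members. MORE or MORE+1 is near 47% in both classes with Oct4 S151M and near the dashed line in both without.

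The 10 strongest members show these types side by side, and 9 of them were kept from day 1. The highest lay in an intron of Tmem260 (chr14:48462867), with a day 5 score of 39.4, a day 1 score of 24.4, no other library and no POU motif. The next was the 4930474N05Rik site shown above, at 33.0 on day 5 and 21.3 on day 1. The Nmbr site followed, at 28.7 on day 5, 66.7 on day 1 and 441.7 for Oct4 S151M. These leading members thus hold both kinds of site, with and without Oct4 S151M.

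The Krr1 site scored 24.7 on day 5, 73.5 on day 1 and 215.5 for Oct4 S151M. The Clip2 site scored 22.7, 188.8 and 226.1 in the same order, its day 1 value being the highest among members. An intergenic site 6647 bp from the start of Vit (chr17:78501417), which encodes an extracellular matrix protein, scored 27.7 on day 5 and 54.3 on day 1, and had a weak Sox2 summit of 5.95 in Oct4defSox2-SK on day 5. The intron of Kdm3b, a gene for a histone H3 lysine demethylase, held a site of 22.7 on day 5 and 35.5 on day 1 without any other summit.

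Another pair of the 10 were near misses of the limit. The site 160184 bp from the start of Slc22a22 (23.5 on day 5, 77.7 on day 1) was 228 bp from an Oct4 summit and had Sox2 scores of 24.52 in Oct4defSox2-SK and 24.97 in Oct4-SK on day 1. The site 33449 bp from the start of Pafah2 (21.7 and 54.0) was 143 bp from one. The last of the 10, in an intron of Ankrd46 (chr15:36490131, 20.8), was in no other library.

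After Ankrd46, the strongest members in no other library were those nearest to Dynlt1b (17.9, at 56487 bp), Cd83 (17.8, at 79931 bp in an exon of the noncoding gene Gm33195) and Egr2 (13.6, at 67360 bp), and the one in an intron of Flrt2 (13.6, with an Oct4 summit 144 bp away). Cd83 marks activated antigen-presenting cells and Egr2 is a zinc finger transcription factor. Of the 249 members in no other library 238 had no POU motif (95.6%, 92.3 to 97.5), and all of them rest on a single library.

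Other strong MORE-bearing members with day 1 and Oct4 S151M summits lay in an intron of the noncoding gene 3110039I08Rik, 271814 bp from the start of Ubash3b (18.9 on day 5, 110.1 on day 1, 259.9 for Oct4 S151M) and near Ankrd7 (15.2, 23.4 and 140.2). Members with SoxOct near Eya1 (11.9, 110.7 and 262.9), in an intron of Cdkal1 (10.3, 34.3 and 545.0) and near Gm7168 (9.46, 37.5 and 54.4) had the same pair of libraries. The Cdkal1 window also held a MORE. Only the 4930474N05Rik site among these 4 strongest SoxOct members lacked Oct4 S151M.

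Sox2 in Oct4defSox2-SK on day 5 was seen at the Vit site and at the Fem1b promoter (day 5 score 18.0, day 1 49.6, Sox2 23.8), as well as at the intergenic site 253403 bp from the start of Ins1 (14.4 and 157.0, Oct4 S151M 290.0, Sox2 12.4). Sox2 reached 6.41 at the site 302768 bp from the start of Ddhd1. A site nearest to Gm5591 was tied with Ins1 at 14.4 and placed after it because chromosome names were ordered as text. It had a Sox2 score of 11.6 and no summit of Oct4defSox2 on day 1 or of Oct4 S151M. Members in 5 or more other libraries, named after their values were seen, numbered 8. At the member nearest to the start of Pank3 (245429 bp), in an intron of Slit3, a guidance ligand gene, Sox2 had day 5 scores of 91.9 in Oct4defSox2-SK, 29.2 in Oct4-SK and 17.6 in Oct6-SK, while Oct4defSox2 scored 5.37 on day 5. The site 194959 bp from the start of Cdh6, a cadherin, had day 5 Sox2 scores of 47.6 in Oct4defSox2-SK and 10.4 in Oct6-SK, and no Sox2 summit in Oct4-SK on day 5. At both, the Sox2 score in Oct4defSox2-SK was above the Oct4defSox2 score of the same day, on scales that differ between libraries.

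The members lay mostly away from promoters. Of the 454, 201 were intergenic (44.3%), 172 in introns of coding genes (37.9%), 36 in introns of noncoding genes (7.93%), 24 within 1 kb of a coding start (5.29%), 8 in noncoding exons, 7 in UTRs and 6 in coding exons. The promoter share of sites with Oct4 was 49 of 580 (8.45%), a difference of -3.16 points (-6.23 to 0.00697) that was not past counting error. The median distance to a coding start was 40586 bp for members and 38677 bp for sites with Oct4, and both had a median GC content of 41.8%. No members lay within 500 bp of each other.

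Promoter members were led by Fem1b, an adaptor of a ubiquitin ligase, and Gtpbp1, a GTP-binding protein (13.6 on day 5, 109.8 on day 1, Oct4 S151M 58.4). Map4k4, a kinase (11.1 on day 5, 9.62 on day 1), was also in 3 Sox2 libraries, and Cops3, a subunit of the COP9 signalosome, scored 11.1 and 24.3. Of the 24 promoter members 15 were kept from day 1 and 5 held a MORE or MORE+1. The promoter of Chd7, a chromatin remodeller, named after its values were seen, scored 11.1 on day 5 and 30.9 on day 1 and held the extended half-site.

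By chromosome, members were most numerous on chromosome 10 (38) and chromosomes 1 and 13 (37 each). Chromosomes 10 and 13 hold 8.37% and 8.15% of members in 4.80% and 4.42% of the sequence length, and 5.17% and 5.69% of sites with Oct4. Chromosome X held 11 members (2.42%, for 6.28% of length) and chromosome Y none. Soft-masked repeats covered most of the window in 59 members (13.0%) and 94 sites with Oct4 (16.2%), and in 45 of the 262 members with neither day 1 nor Oct4 S151M summits (17.2%).

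Within 50 kb of a coding start, members were found for 477 of 21911 genes (2.18%), and sites with Oct4 for 673 (3.07%). Of the 214 genes in 9 lists of pluripotency, POU, Sox, Klf, AP-1, mesenchymal, epithelial, neural and TGF-beta genes, 3 (1.40%) had a member (Sox14, Col1a2 and Tubb3) and 9 had a site with Oct4 (Jund, Klf13, Pou6f1, Sox9, Sox10, Hes5, Zic1, Tet1 and Tet2). The share of listed genes with a member was near that of all coding genes. None of the 36 pluripotency genes had a member, and Tet1 and Tet2, which oxidise methylated cytosine, had a site with Oct4.

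The member near Sox14, a neural Sox factor, lay 19040 bp from its start with a score of 6.01 and was in no other library. The member near Col1a2, a chain of type I collagen that fibroblasts make in bulk, lay 11081 bp away and scored 6.73 on day 5 and 6.41 on day 1. The member of Tubb3, a neuronal tubulin, lay in an intron at a score of 4.16 with no other library. The Sox14 and Tubb3 scores lay below the members' median and the Col1a2 score just above it. Distance alone does not tie a site to a gene.

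Zfp982 was the sole coding gene nearest to 3 members. They lay on chromosome 4 at its promoter (9.23) and at separate places in introns of the noncoding gene C230088H06Rik (6.33, where Gm26624 overlaps, and 4.39). None was in any of the 9 other libraries, but the nearest Oct4 summits lay at 329, 1532 and 7735 bp in that order. Soft-masked repeats made up 42.8%, 95.5% and 15.4% of their windows in that order. Zfp982 belongs to a multigene family of zinc finger genes, and whether reads could be placed uniquely there was not tested.

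Oct4 S151M peaks, which reach further than summits, covered 145 members (31.9%, 27.8 to 36.4) and 522 sites with Oct4 (90.0%, 87.3 to 92.2). Of the 145, 23 had no Oct4 S151M summit within 100 bp. The fold enrichment of the covering peaks had a median of 14.1 at members and 34.1 at sites with Oct4, against 7.32 over all Oct4 S151M peaks.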

How the data were processed

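ChIP-seq libraries of OG2 fibroblasts with summits (13) were assigned by title to a combination of antibody, cocktail and day, each with 1 library. The authors aligned reads to mm10 with Bowtie2 (version 2.2.5 in the submitters' processing notes), dropped low-quality alignments and duplicates with SAMtools, and called peaks per library with MACS2 at a p-value threshold. The lowest deposited score was 2.30 for Oct6 M151S and at least 4.00 in the other libraries, so its list is not of the same threshold. The deposited score of a summit is −log10 of that p-value, unadjusted and unscaled between libraries. Peak tables deposited for the exchange mutants hold a fold enrichment (a ratio to local background) and a −log10 q-value, of which the fold of Oct4 S151M was used. Read depth is unknown here, and the 3 input libraries were not used here.

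Sharing meant a summit within 100 bp. Motifs were consensus strings searched on both strands within 100 bp of a summit, in the GRCm38 sequence, with background windows 2 kb to each side. Locations came from GENCODE M21 basic. Shares carry Wilson and differences Newcombe 95% intervals, and a difference was past counting error when its interval excluded 0. No p-value was computed, and the scripts were tested on simulated data. Python 3.11.15, numpy 2.4.6, pandas 2.3.3, scipy 1.17.1 and matplotlib 3.10.9 were used.

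Members, gene lists, motifs and tests were chosen with earlier results of these data known, and TTATGCAA and CACGTC after their values were seen. Sites were named by rule: the 10 highest scores, the 5 highest in no other library, the 5 highest with MORE or MORE+1, day 1 and Oct4 S151M summits, the 4 highest each with SoxOct, with Sox2 in Oct4defSox2-SK on day 5 and at promoters, every listed gene within 50 kb and every gene nearest to 3 or more members. Ties were ordered by chromosome name as text and then by position. Ins1 thus came before Gm5591, and Cops3 before Chd7, at equal scores. Ppp1r17, B3galt1, Atp10a, Sgms1, Tnip2, Chd7, Gm5591 and members in 5 or more other libraries were named after their values were seen. A site named for a gene is the one nearest to its coding start, however far. Alternatives varied the distances, score minimum, clustering, library size, mismatches, window and promoter distance.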

Additional observations from a re-analysis of the deposited data

How the results depend on the processing

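Under 11 other settings chosen at the outset and 2 chosen after seeing the data, 12 differences in share gave 98 further values, of which 87 kept their direction and their side of the counting interval. The number of members stayed between 427 and 514 over member distances of 50 to 500 bp. With a day 5 score of at least 10, which leaves 88 members, these differences were no longer past counting error: SoxOct share -3.88 points, Oct6 M151S -6.51, Sox2 in Oct4-SK on day 5 -5.38, and, between kept and new members (20 new ones), MORE share 18.2 and Sox2 in Oct4defSox2-SK 6.76. Fewer sites enter this setting. Sox2 in Oct4defSox2-SK on day 5, members against sites with Oct4, was 1.94 points at that score (-3.75 to 10.3), and passed counting error at a member distance of 250 bp (-3.55), a sharing distance of 250 bp (-5.98) and, as an added alternative, scores under 10 (-4.42). With the strongest summits of each other library only, as many as the day 5 list holds, Sox2 in kept against new members was -1.19 points (-2.75 to 9.26), with 0 of 33 kept and 5 of 421 new sites. The promoter share was 0.878 points at 5 kb (-3.61 to 5.49). These 3 changes of sign have intervals that include 0. The cause was not tested.

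At a score of at least 10, the gaps narrowed for Oct4defSox2 on day 1 (77.3% of members against 98.0%, -20.7 points), Oct4 S151M (50.0% against 91.2%, -41.2), MORE or MORE+1 (34.1% against 45.7%, -11.6) and no POU motif (59.1% against 43.0%, 16.1), still past counting error. With scores under 10, the shares were 28.7% against 91.2% for Oct4defSox2 on day 1, 21.3% against 74.7% for Oct4 S151M and 8.74% against 29.7% for MORE or MORE+1. With the strongest summits only, Oct4defSox2 on day 1 was at 7.27% of members and Oct4 S151M at 1.76%, so the counts above depend on how deep those lists go. Without a mismatch, MORE or MORE+1 was in 22 members (difference -11.2 points), and with 2 mismatches in 128 (-30.9). The SoxOct difference was -10.9 points with 1 mismatch more and -2.93 with 1 fewer, and that of no POU motif 19.3 with 1 fewer. No paired analysis was possible because every group had 1 library.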

Other observations

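A hexamer, CACGTC, was noticed at several of the strongest members without a match to the POU motifs as searched. It was noticed after their values had been seen and is given as a description. It was in 3 of the 10 highest-scoring members and in 3 of the 5 highest that no other library held. The matches are shown in capitals 5′ to 3′ in GRCm38 (mm10), at Tmem260 (chr14:48462839-48462899, plus strand), near Vit (chr17:78501364-78501424, plus strand), at Ankrd46 (chr15:36490076-36490136, minus strand), near Cd83 (chr13:43864662-43864722, minus strand) and at Flrt2 (chr12:95713726-95713786, minus strand).
Tmem260: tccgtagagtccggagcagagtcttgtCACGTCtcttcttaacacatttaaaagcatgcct
Vit: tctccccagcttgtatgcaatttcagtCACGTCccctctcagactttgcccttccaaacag
Ankrd46: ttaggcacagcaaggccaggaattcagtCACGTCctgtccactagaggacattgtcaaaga
Cd83: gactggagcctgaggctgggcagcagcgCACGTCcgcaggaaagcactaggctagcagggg
Flrt2: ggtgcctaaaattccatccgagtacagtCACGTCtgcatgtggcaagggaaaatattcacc

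The hexamer lay 1.5 bp from the Tmem260 summit and 23.5, 25.5, 14.5 and 49.5 bp from the others in that order. The bases before it were not the same at Cd83 as at the other sites shown. Searched on both strands, it was in 8 of the 70 members with day 1 but no Oct4 S151M summits (11.4%, 95% interval 5.91 to 21.0) and in 0 of their 140 flanks. That class holds the Tmem260 and Vit sites at which the hexamer was noticed. It was in 2 of the 103 members with both summits (1.94%), 0 of the 19 with Oct4 S151M only and 9 of the 262 with neither (3.44%). Over all members it was in 19 of 454 (4.19%), against 21 of 580 sites with Oct4 (3.62%), 1.76% of member flanks and 1.67% of all summits. It was in 0 of the 62 members with a MORE or MORE+1.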
